A study of Homo sapiens with 12 samples.

Results

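Zinc finger genes named ZNF100 to ZNF399 were followed across the treatments of an A549 wound series. Members were all genes whose platform symbol is ZNF followed by 3 digits of which the first is 1, 2 or 3, each read through its brightest probe set that carries 1 gene symbol. This gave 128 of the 18132 genes tested. The rule used name and level and no difference between groups, but the name range itself was proposed with earlier results of these data known. A549 is a human lung adenocarcinoma line, and its monolayers had received 2 h of heat shock and then 4 h of wounding, the 2 h heat shock by itself, the 4 h wounding by itself, or neither (control), with 3 PrimeView arrays a group and 12 in all. The labels do not say when cells that were heat shocked alone were collected, nor whether the 3 replicates were separate cultures, so p-values measure the spread between these arrays, which may be technical. The sample descriptions give replicates 1 and 2 of each group a common number, and a fit that counted them as 1 sample is given beside the counts.

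Most proteins of this name class carry tandem C2H2 zinc fingers, each of which folds around a zinc ion and contacts a few bases of DNA. Many also carry a KRAB domain, which binds TRIM28 (KAP1) and through it brings the histone methyltransferase SETDB1 and HP1 proteins to chromatin, and such proteins are known for silencing transposable elements. KRAB zinc finger genes multiplied by local duplication, and large clusters of them lie on chromosome 19. Other genes of the same name range encode activators, RNA-binding proteins or mitotic factors, so the name marks a protein fold more than a pathway.

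The members were mid-level to dim transcripts on these arrays. Their mean log2 level over the 12 arrays had a median of 6.09, against 6.03 for all genes tested, and ran between 2.22 for ZNF345 and 11.17 for ZNF146. Background was not measured, so the upper quartile of 17 leukocyte and endothelial marker genes in control monolayers, 4.59, served as a floor. 94 members lay at or above it and 34 below it. Of the members, 55 lie on chromosome 19, and the other 73 are spread over the rest of the 20 chromosomes that hold at least 1.

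The labels held up against genes of known response. HSPA6, a stress-inducible HSP70 gene, had 10.92, 10.96 and 10.4 in heat shocked and wounded monolayers, 10.34, 10.48 and 9.46 in heat shocked, 4.79, 4.86 and 4.18 in wounded and 4.48, 4.11 and 4.31 in control monolayers on the log2 scale. EGR1, an immediate early gene, averaged 8.01 with both treatments, 6.06 after heat shock and 8.02 after wounding, against 5.03 in control. Group means of 5 epithelial markers lay between 9.13 and 13.83, and those of 5 fibroblast, 11 leukocyte and 6 endothelial markers reached at most 4.52, 5.84 and 4.78. Alveolar type II markers lay between 2.26 and 7.65. Array medians were 5.298 to 5.325, and Pearson correlations between replicates over genes were 0.9951 to 0.9985. The array of replicate 2 with both treatments had the narrowest interquartile range, 3.977, against 4.134 to 4.235 on the other arrays.

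The zinc finger genes did not fall as a class. After heat shock alone, 14 of the 128 members rose (10.9%) and 7 fell (5.47%), against 4.93% and 7.92% of all genes tested (limma, Benjamini-Hochberg adjusted p under 0.05). With both treatments against control, 22 rose (17.2%) and 10 fell (7.81%), against 8.66% and 14.4% of all genes. Heat shock before wounding, against wounding alone, raised 14 members (10.9%) and lowered 10 (7.81%), against 6.31% and 8.6% of all genes. Of the called members, 66.7% were higher after heat shock and 68.8% with both treatments against control, where the shares among all called genes were 38.4% and 37.6%. Cyclic loess scaling gave 70.8% and 77.8% for members and 49.6% and 50.1% for all genes, so all genes had fewer rises than falls as deposited and about equal numbers under loess, while the members had more rises than falls under both. With replicates 1 and 2 averaged into 1 sample, 6 members rose and 2 fell after heat shock, 15 rose and 4 fell with both treatments against control, and 7 rose and 2 fell with both against wounding.

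**Figure D1:**
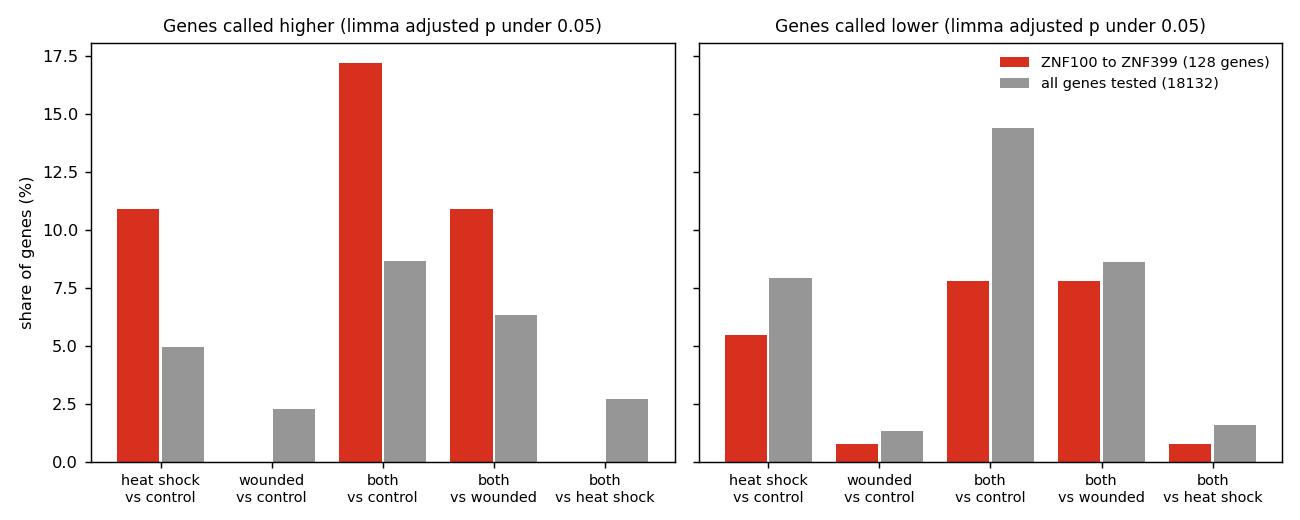
Share of genes (y axis, %) called higher (left) or lower (right) at a limma adjusted p under 0.05 in 5 comparisons, for the 128 ZNF100 to ZNF399 genes (red) and all 18132 genes tested (grey). In heat shock against control 10.9% of the ZNF genes were higher, against 4.93% of all genes, and 5.47% were lower, against 7.92%.

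The class median barely moved. The median log2 difference over the 128 members was 0.013 for heat shock against control, 0.013 for wounding against control and 0.030 for both treatments against wounding, beside medians of -0.034, -0.034 and 0.020 over all genes. For both treatments against control it was -0.0, with 64 members below 0 and 64 above, beside -0.007 over all genes. For both treatments against heat shock it was 0.003, beside 0.012. Taken per array, the median deviation of the members from their control means was 0.069, 0.000 and 0.021 in heat shocked and wounded monolayers, 0.011, 0.053 and -0.003 in heat shocked, 0.014, -0.002 and -0.002 in wounded and 0.031, 0.020 and -0.049 in control monolayers. The 4 groups overlapped on this measure, and no group stood apart. After heat shock, differences of single members were small, though not smaller than those of other genes. The median absolute log2 difference was 0.135, against 0.107 over all genes. No member was called with a change of 2-fold or more. Of all 18132 genes only 97 were higher and 7 lower by that size, so their absence among 128 members does not set the class apart.

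Among members that rose after heat shock, ZNF274 had the largest difference. Its protein, which carries KRAB and SCAN domains, recruits SETDB1 and TRIM28 to the 3' ends of zinc finger genes. ZNF274 had 7.87, 8.0 and 7.48 in heat shocked monolayers, against 7.0, 6.89 and 6.9 in control. The groups did not overlap, and the log2 difference with its SE was 0.85 ± 0.11 (limma adjusted p = 0.000347), or 1.8-fold. The brightest probe set of ZNF274 has the suffix _s_, which in Affymetrix naming marks probes shared with other transcripts. The other 3 probe sets of the gene gave 0.23, 0.11 and 0.08, none of them past the threshold. Its 1.8-fold rise thus rests on 1 probe set of 4.

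ZNF331, an imprinted KRAB gene, rose on several probe sets. It had 8.5, 8.4 and 8.5 in heat shocked monolayers, against 8.08, 7.9 and 8.03 in control, a difference of 0.46 ± 0.08 (1.38-fold; limma adjusted p = 0.00247). All heat shocked arrays lay above all control arrays, and the other 3 probe sets gave 0.50, 0.41 and 0.43. ZNF134 had 6.95, 7.0 and 6.56, against 6.42, 6.32 and 6.24 in control, and rose by 0.51 ± 0.10 (limma adjusted p = 0.00679). Its other probe sets gave 0.45, 0.33 and 0.34, and with replicates 1 and 2 averaged its call was lost (0.46, limma adjusted p = 0.082). For both genes every probe set was higher after heat shock by at least 0.33.

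ZNF350, also called ZBRK1, encodes a KRAB repressor that binds BRCA1 and represses GADD45A. It had 5.01, 4.97 and 4.75 in heat shocked monolayers, against 4.53, 4.38 and 4.31 in control, a rise of 0.51 ± 0.10 (limma adjusted p = 0.00461). Its control values lay under the floor of 4.59, so the size of this rise is approximate. ZNF211 had 5.92, 5.92 and 5.72, against 5.62, 5.39 and 5.26 in control (0.43 ± 0.10; limma adjusted p = 0.0112), and ZNF329 had 5.81, 6.1 and 5.78, against 5.68, 5.24 and 5.38 (0.46 ± 0.12; limma adjusted p = 0.0271). Neither gene's groups overlapped, though the lowest heat shocked array stood close above the highest control array in each. ZNF329 lost its call in 4 of 20 alternative settings (limma adjusted p from 0.0518 to 0.117). These left out control replicate 2 or 3, or heat shock replicate 1 or 2. ZNF211 lost its call without heat shock replicate 1 (adjusted p = 0.0513) and with replicates 1 and 2 averaged (adjusted p = 0.0541). The other 8 members that rose were ZNF365, ZNF239, ZNF341, ZNF319, ZNF106, ZNF317, ZNF384 and ZNF302, with log2 differences of 0.27 to 0.42. ZNF341 activates transcription of STAT3, and ZNF384 is a transcription factor known from fusions in leukaemia. ZNF341 lost its call in 12 of 21 alternative settings, among them leaving out any 1 heat shocked array, and ZNF384 gave 0.19 on probe sets without a shared suffix (adjusted p = 0.19).

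The member with the lowest adjusted p among those that fell was ZNF346, which encodes a protein that binds double-stranded RNA. It had 6.35, 6.32 and 6.48 in heat shocked monolayers, against 6.91, 6.84 and 7.0 in control, and fell by 0.54 ± 0.07 on the log2 scale (limma adjusted p = 0.000478). The groups lay well apart, and all 5 other probe sets were lower as well, by 0.04 to 0.36. ZNF184 had 5.38, 5.39 and 5.19, against 5.97, 5.96 and 5.63 in control (-0.53 ± 0.16; limma adjusted p = 0.0437). Its spread was wider than that of ZNF346, and the call was lost without any 1 of the 3 heat shocked arrays, of control replicates 1 or 2, or of wounded replicate 1 (adjusted p from 0.0558 to 0.149).

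ZNF292, a large protein first described as a regulator of growth hormone transcription, had 7.12, 7.08 and 7.06 after heat shock, against 7.44, 7.46 and 7.42 in control. The difference was -0.35 ± 0.10 (limma adjusted p = 0.0293), and it missed the threshold without any 1 of the 6 arrays compared (adjusted p from 0.066 to 0.0899). ZNF254, ZNF287, ZNF235 and ZNF219 fell by 0.42, 0.42, 0.36 and 0.29. The mean over all probe sets ended the calls of ZNF254 (-0.22, adjusted p = 0.206), ZNF287 (-0.10, adjusted p = 0.491) and ZNF219 (-0.16, adjusted p = 0.119), and the other probe sets of ZNF287 gave 0.08 and 0.05. Counts of rises were 9 without control replicate 2 and 8 without heat shock replicate 1, and counts of falls were 3 without control replicate 1 and 4 without heat shock replicate 1 or 2.

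**Figure D2:**
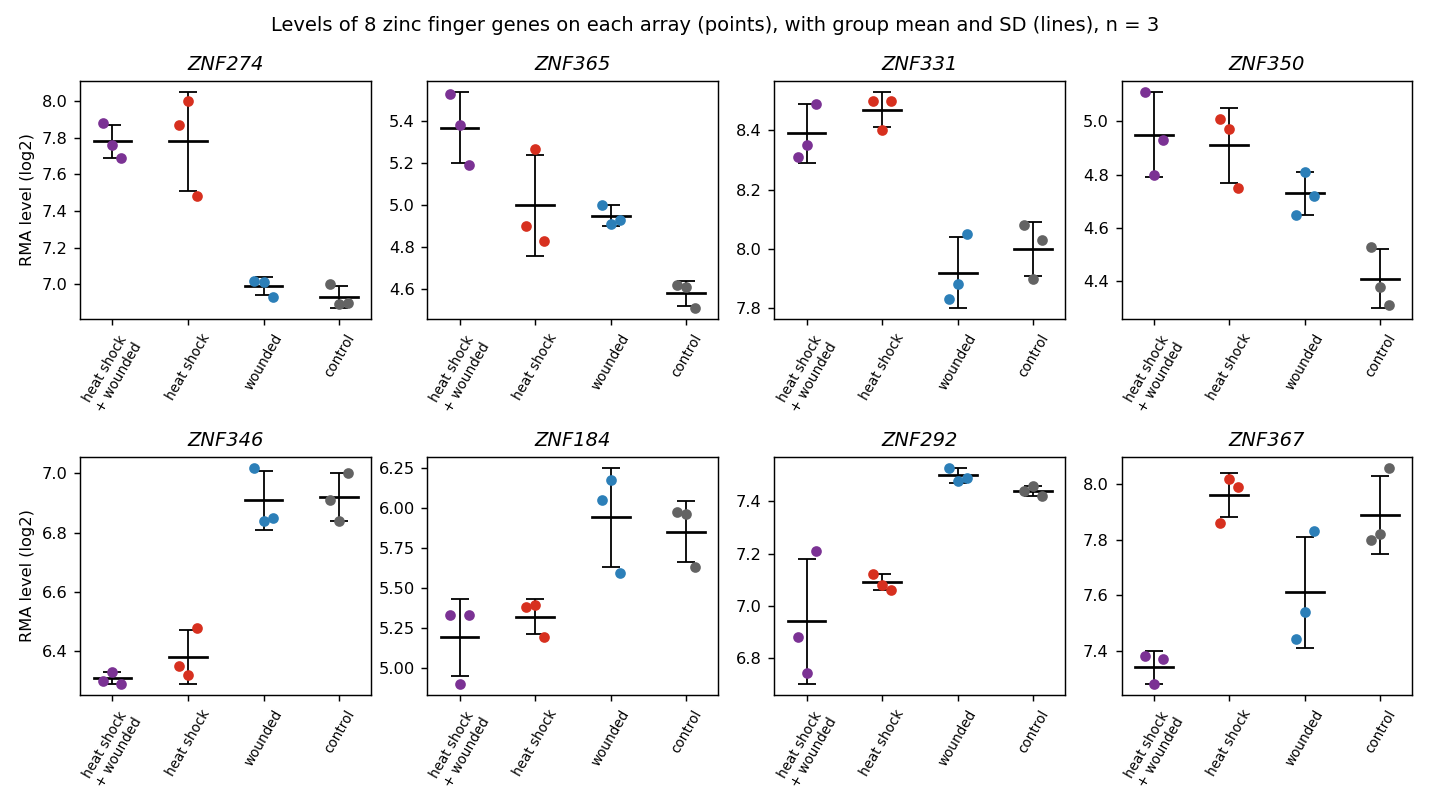
RMA levels (y axis, log2) of 8 genes on each array (points) in heat shocked and wounded, heat shocked, wounded and control monolayers, with group mean and SD (black lines, n = 3). ZNF274 averaged 7.78 in both heat shocked groups, against 6.99 in wounded and 6.93 in control, while ZNF346 averaged 6.31 and 6.38, against 6.91 and 6.92.

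The proximal promoters of 4 members are printed. ZNF274 had the largest rise and ZNF346 the fall with the lowest adjusted p. ZNF331 and ZNF254 are the 2 called members whose promoter holds GAANNTTC, 2 units of the heat shock element, the binding motif of heat shock factors. ZNF331 rose and ZNF254 fell after heat shock, ZNF254 on 1 of its 2 probe sets. The 250 bases before the gene start are given 5' to 3' on the gene's strand (plus for all 4), from RefSeq, GRCh38.p14, at chr19:58182811-58183060, chr5:177022446-177022695, chr19:53520764-53521013 and chr19:24086937-24087186. Capitals mark the motif GAANNTTC, which is its own reverse complement.
ZNF274: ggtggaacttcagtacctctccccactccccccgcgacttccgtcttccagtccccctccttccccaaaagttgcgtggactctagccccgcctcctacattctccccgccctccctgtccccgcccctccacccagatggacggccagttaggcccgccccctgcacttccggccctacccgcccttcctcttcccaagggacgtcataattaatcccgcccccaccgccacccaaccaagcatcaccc
ZNF346: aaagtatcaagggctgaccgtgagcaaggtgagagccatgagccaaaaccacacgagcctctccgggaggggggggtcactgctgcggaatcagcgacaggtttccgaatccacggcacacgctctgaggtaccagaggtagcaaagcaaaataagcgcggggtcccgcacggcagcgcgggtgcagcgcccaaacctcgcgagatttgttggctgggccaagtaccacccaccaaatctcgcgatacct
ZNF331: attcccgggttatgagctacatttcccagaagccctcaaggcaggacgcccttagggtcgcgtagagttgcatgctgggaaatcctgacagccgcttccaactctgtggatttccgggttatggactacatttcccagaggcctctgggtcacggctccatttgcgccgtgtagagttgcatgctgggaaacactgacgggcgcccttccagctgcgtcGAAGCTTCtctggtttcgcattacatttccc
ZNF254: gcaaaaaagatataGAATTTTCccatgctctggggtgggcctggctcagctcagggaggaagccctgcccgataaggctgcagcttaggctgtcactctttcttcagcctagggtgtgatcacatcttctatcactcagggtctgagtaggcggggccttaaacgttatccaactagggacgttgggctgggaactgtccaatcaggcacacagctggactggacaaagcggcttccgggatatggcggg

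The motif begins 31 bases before the start of ZNF331 and 236 bases before that of ZNF254. Promoters reaching from 250 bases before to 50 after the start were at hand for 112 members. GAANNTTC stood in 5 of them (4.46%), in ZNF208, ZNF254, ZNF285, ZNF300 and ZNF331, against 6.87% of all 27305 promoters and 5.41% of the 14425 promoters of genes tested. Among genes tested that rose after heat shock, 8.77% of 741 promoters held it, and among those that fell 3.69% of 1194. For members the shares were 1 of 13 that rose and 1 of 7 that fell. A longer motif of 3 units, GAANNTTC followed by NN and GAA, contains the shorter one and was searched on both strands. It stood in none of the 112 member promoters and in 0.487% of all promoters. The members' promoters held a median of 21.5 CpG sites and 60.8% G and C, against 23 and 63% for all genes tested. A match is a run of letters and does not show binding.

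Wounding alone changed a single member. ZNF114 had 5.67, 5.58 and 5.95 in wounded monolayers, against 6.14, 6.28 and 6.13 in control, a difference of -0.45 ± 0.10 (limma adjusted p = 0.0291). The call was lost without any 1 control array, and without wounded replicate 1 or 2 (adjusted p from 0.0651 to 0.143). No member rose at the adjusted threshold of limma, where 2.27% of all genes rose and 1.31% fell (3.57% in either direction). At an unadjusted p under 0.05, 7 members were higher and 4 lower. These 11 of 128 were a smaller share than the 2388 of all 18132 genes. Without wounded replicate 3 the count of falls was 3, and without heat shock replicate 2 there was 1 rise.

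With both treatments against control, ZNF274 again led the rises with 7.88, 7.76 and 7.69, against 7.0, 6.89 and 6.9 (0.85 ± 0.11; limma adjusted p = 0.000141). ZNF365, linked to genome stability, followed with 5.53, 5.38 and 5.19, against 4.62, 4.61 and 4.51 in control (0.79 ± 0.11; 1.73-fold; limma adjusted p = 0.000274). Its levels were 4.9, 5.27 and 4.83 after heat shock alone and 5.0, 4.91 and 4.93 after wounding alone, so the mean of each single treatment lay between those of both and control, though single arrays overlapped. The single treatments differed from control by 0.42 ± 0.11 (adjusted p = 0.0271) and 0.37 ± 0.11 (adjusted p = 0.123), and the interaction had an adjusted p of 0.999. The rise of ZNF365 stands on its brightest of 8 probe sets. The mean over all 8 gave 0.18 for both treatments (adjusted p = 0.0732) and 0.08 for heat shock alone (adjusted p = 0.539).

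ZNF350, ZNF211, ZNF329 and ZNF212 rose by 0.54, 0.51, 0.50 and 0.42 with both treatments. ZNF394, an inhibitor of AP-1 and MAP kinase signalling, rose by 0.41 and ZNF175, described as a repressor of the HIV promoter in macrophages, by 0.37. ZNF143, which drives small nuclear RNA promoters, had 5.93, 5.82 and 5.94, against 5.64, 5.68 and 5.47 in control (0.30 ± 0.08, limma adjusted p = 0.0131). ZNF281 rose by 0.27 and lost its call in 4 of 21 alternative settings. ZNF384 rose by 0.34 and lost its call in 1 of 21, on probe sets without a shared suffix (0.16, limma adjusted p = 0.236). Every one of the 22 was at or above the floor on average, and 21 had groups that did not overlap. How often groups lay apart among all called genes was not counted, so this adds no support beyond the calls.

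On the falling side, ZNF184 had 5.33, 4.9 and 5.33 with both treatments (-0.67 ± 0.16; limma adjusted p = 0.00853) and ZNF346 had 6.3, 6.33 and 6.29 (-0.61 ± 0.07; limma adjusted p = 6.59e-05), and neither reached the lowest control array. ZNF367 had 7.38, 7.28 and 7.37, against 7.8, 7.82 and 8.06 in control (-0.55 ± 0.10, limma adjusted p = 0.00179). The mean over all probe sets of ZNF367 gave -0.19 (limma adjusted p = 0.139), and its other probe sets gave 0.1 and -0.13. ZNF207, also called BuGZ, a factor of spindle assembly, had 11.05, 10.75 and 11.01, against 11.22, 11.26 and 11.22 (-0.30 ± 0.08; limma adjusted p = 0.0157). Its call was lost without replicate 2 of the treated group, the array with the narrow range (adjusted p = 0.0519), and without control replicate 2 (adjusted p = 0.0538). ZNF236 fell by 0.52, with 3.88, 3.22 and 3.84 against 4.21, 4.25 and 4.02, all under the floor. ZNF292, ZNF114, ZNF287, ZNF133 and ZNF219 fell by 0.50, 0.39, 0.29, 0.29 and 0.29. ZNF133 lost its call in 13 of 21 alternative settings, and the mean over all probe sets gave -0.07 for ZNF287 (adjusted p = 0.552) and -0.14 for ZNF219 (adjusted p = 0.135). Without control replicate 2, 6 members fell in this comparison.

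ZNF367 was also the only member called between both treatments and heat shock alone, where 2.71% of all genes rose and 1.58% fell. It had 7.38, 7.28 and 7.37 with both treatments, against 7.86, 8.02 and 7.99 after heat shock alone, a fall of 0.61 ± 0.10 (limma adjusted p = 0.0045). After wounding alone it had 7.44, 7.54 and 7.83, which overlapped control, and that difference was -0.29 ± 0.10 (adjusted p = 0.205). The mean over its 3 probe sets gave -0.20 between both treatments and heat shock alone (adjusted p = 0.264). No member rose in this comparison (limma), and 8 did at an unadjusted p under 0.05. In either direction 14 of 128 members had such a p, a smaller share than the 3164 of all 18132 genes. There were 2 falls without heat shock replicate 3 or heat shocked and wounded replicate 1 or 3, and 1 rise without heat shock replicate 2 or heat shocked and wounded replicate 3.

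The heat shock difference could be read in 2 pairs of groups that share no arrays, without wounding and with it. All 14 members that rose without wounding were also higher with wounding, and 11 of them passed there, which is 78.6% of each list of 14. All 7 that fell were also lower with wounding, and 5 passed, which is 71.4% of these 7 and 5 of the 10 that fell with wounding. Over all genes tested the same shares were 72.6% and 56.7% for rises and 65.5% and 60.3% for falls. Whether members repeated more or less often than other genes was not tested. Across the 128 members the 2 sets of differences correlated at r = 0.81, a description over genes that share the arrays of each pair, against 0.77 over all genes.

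Within wounded monolayers ZNF274 had 7.88, 7.76 and 7.69 with heat shock, against 7.02, 7.01 and 6.93 without (0.79 ± 0.11; limma adjusted p = 0.000594). ZNF239, whose protein binds DNA and RNA, had 6.65, 6.52 and 6.77, against 5.91, 5.88 and 6.21 (0.65 ± 0.10; limma adjusted p = 0.00109), and ZNF331 rose by 0.46 ± 0.08, as it did without wounding. ZNF184, ZNF346 and ZNF292 fell by 0.75, 0.60 and 0.56. ZNF217, an oncogene amplified in breast cancer whose protein works in corepressor complexes, had 8.47, 8.38 and 8.43, against 8.82, 9.07 and 8.69 in wounded monolayers (-0.43 ± 0.10; limma adjusted p = 0.0104). Without wounding it differed by -0.02 ± 0.10 (adjusted p = 0.929), and its interaction of -0.41 ± 0.14 had the lowest unadjusted p of the members, 0.0111, and an adjusted p of 0.608. No member passed the interaction, where 1 gene of all tested did (0.00552% higher and 0.0% lower). An unadjusted p under 0.05 was found for 5 of 128 members, a smaller share than the 1302 of all 18132 genes. ZNF208 and ZNF358 came next with 0.34 ± 0.12 and 0.30 ± 0.11.

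Counts in this comparison leaned on single arrays. Rises numbered 8 without heat shocked and wounded replicate 1 or without wounded replicate 3 and 9 without wounded replicate 1, and falls 5 without the first of these and 6 without wounded replicate 1 or 2.

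**Figure D3:**
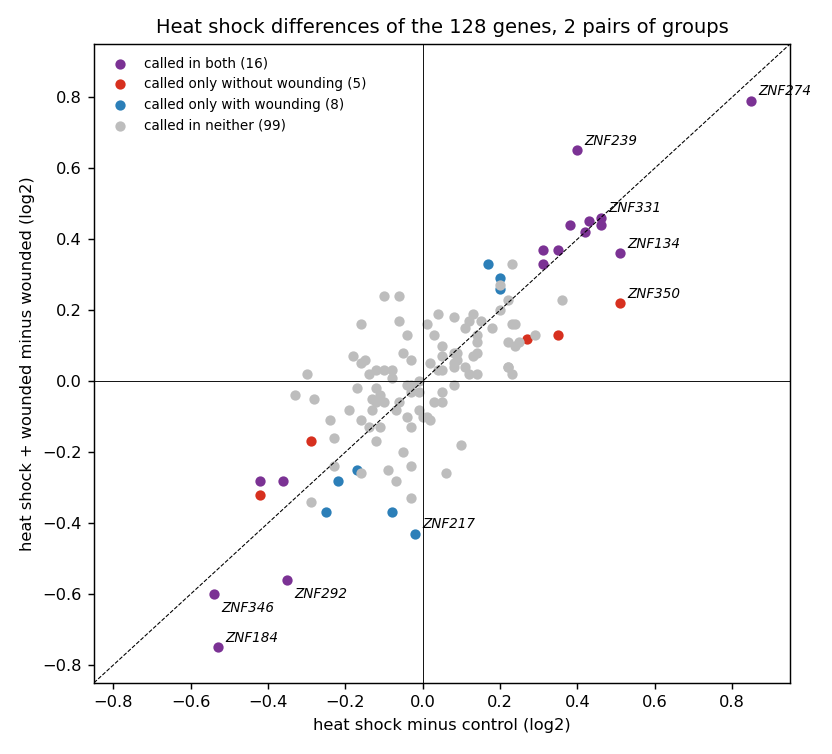
Log2 difference of each of the 128 genes for heat shock against control (x axis) and for heat shock with wounding against wounding (y axis), coloured by the comparisons in which the gene was called, with the line of equal differences dashed. Called genes lie in the same direction on both axes, with ZNF274 at 0.85 and 0.79 and ZNF346 at -0.54 and -0.60.

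Since calls are rarer among dim genes, members were set beside genes of like level. All genes were split into 4 bins of equal size by mean level, bounded at 3.76, 6.03 and 8.26, which held 25, 37, 54 and 12 members. No member of the lowest bin was called after heat shock, where 0.574% of all genes rose and 0.838% fell. In the lower middle bin 5 members rose (13.5%) and 2 fell (5.41%), against 2.76% and 4.28% of all genes. In the upper middle bin 7 rose (13.0%) and 4 fell (7.41%), against 7.17% and 14.5% of all genes of that level. In the highest bin 2 rose and 1 fell of 12, against 9.22% and 12.1%.

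With both treatments against control the upper middle bin again held more rises and fewer falls among members than among all genes. There 14 of 54 members rose (25.9%) and 4 fell (7.41%), against 12% and 25.8% of all genes, and the median log2 difference was 0.066 for members and -0.084 for all genes. The lower middle bin had more falls among members, 10.8% against 7.96% of all genes, beside 13.5% and 7.3% that rose, with medians of -0.002 and 0.039. With heat shock and wounding against wounding, 9 members rose (16.7%) and 5 fell (9.26%) in the upper middle bin, against 7.94% and 16.2% of all genes. In the lower middle bin 10.8% of members rose and 5.41% fell, against 6.13% and 4.37%. In the highest bin 1 member of 12 rose (8.33%) and 3 fell (25%), against 8.65% and 13.5%. These shares are descriptions, and no test of the class against genes of like level was made.

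**Figure D4:**
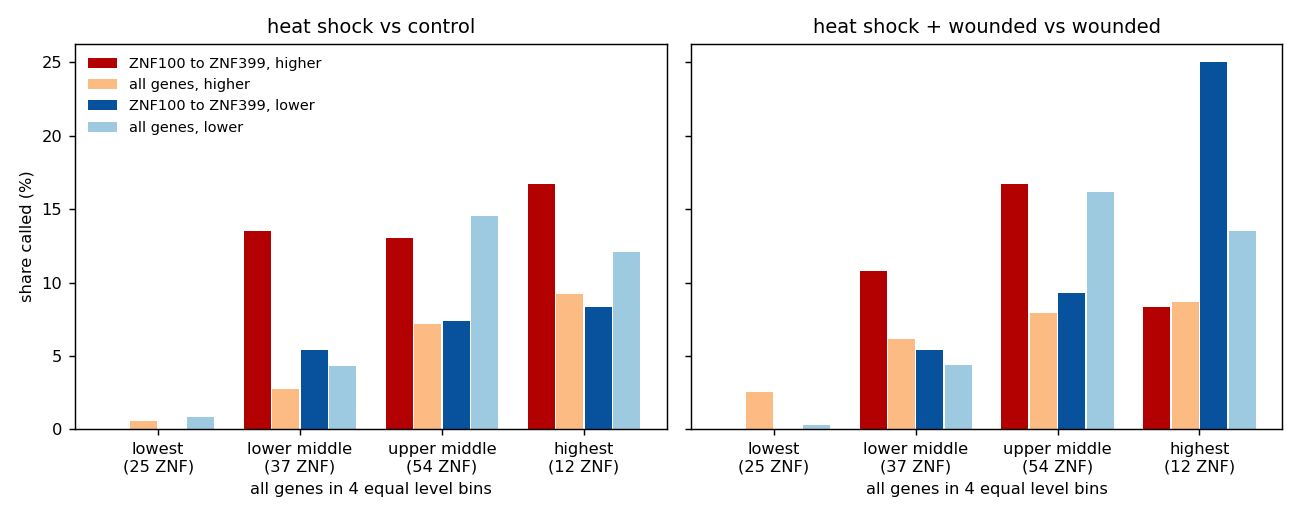
Share of genes called (y axis, %) within each of 4 equal bins of all genes by mean level (x axis, number of ZNF100 to ZNF399 genes in brackets), for heat shock against control (left) and heat shock with wounding against wounding (right). In the upper middle bin after heat shock 13.0% of the ZNF genes were higher, against 7.17% of all genes, and 7.41% were lower, against 14.5%.

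Calls were also counted by chromosome, with no test between places. On chromosome 19, 8 of 55 rose after heat shock (14.5%) and 2 fell (3.64%), and elsewhere 6 of 73 rose (8.22%) and 5 fell (6.85%). With both treatments against control 11 rose and 1 fell on chromosome 19, and 11 rose and 9 fell elsewhere. Over all 1293 genes of chromosome 19, 70 rose (5.41%) and 43 fell (3.33%) after heat shock, and 113 rose (8.74%) and 81 fell (6.26%) with both treatments. Of the 8 that rose, ZNF134, ZNF211, ZNF329 and ZNF274 lie in the last of 4 equal stretches of the 205 measured ZNF genes of the 2 name ranges, towards the end of the long arm, in 2 neighbouring pairs. That stretch held 11 members, so 4 of 11 rose and none fell. Of the 40 genes named ZNF400 to ZNF999 in the same stretch 1 rose and 1 fell, and of the 28 other genes between them 0 rose and 2 fell. The stretch was singled out after the values were seen. Among its rises, the calls of ZNF329 and ZNF211 were lost without single arrays, and that of ZNF274 rested on 1 probe set of 4.

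**Figure D5:**
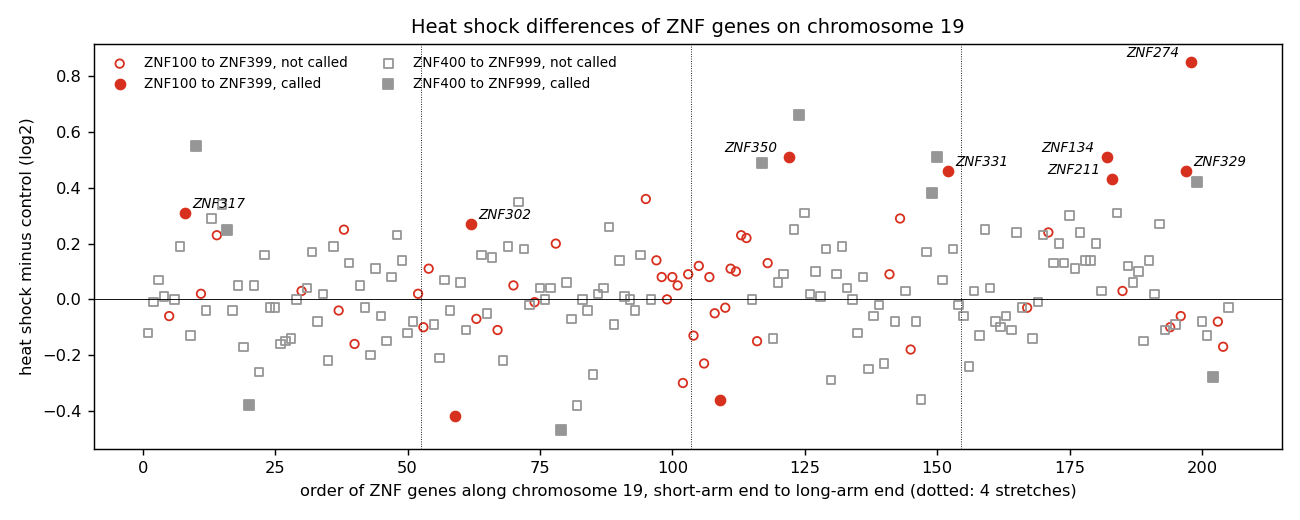
Log2 difference for heat shock against control (y axis) of 205 ZNF genes in their order along chromosome 19 (x axis, dotted lines between 4 stretches), with ZNF100 to ZNF399 as red circles and ZNF400 to ZNF999 as grey squares, filled where called. ZNF134, ZNF211, ZNF329 and ZNF274, at 0.51, 0.43, 0.46 and 0.85, lie at the long-arm end among many genes that were not called.

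The later-numbered genes of the same name class, ZNF400 to ZNF999, showed smaller shares after heat shock, with 12 of 279 higher (4.3%) and 9 lower (3.23%). With both treatments against control 32 rose (11.5%) and 20 fell (7.17%). These genes were dimmer, with a median level of 4.98 and 159 of 279 at or above the floor. In the upper middle level bin their shares lay nearer to those of ZNF100 to ZNF399: with both treatments against control 25.3% of 83 rose and 12% fell, and with both against wounding 18.1% rose and 4.82% fell. After heat shock alone 9.64% of these 83 rose and 8.43% fell. Genes named ZBTB, zinc finger proteins with a BTB domain, had 2 of 35 higher and 0 lower after heat shock (limma). With both treatments 6 were higher and 3 lower. After heat shock 7 of the 35 had an unadjusted p under 0.05 in either direction, against 4588 of all 18132 genes. ZSCAN and ZKSCAN genes had 1 of 26 higher and 3 lower after heat shock. Differences between these classes were not tested.

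Read by role, 3 of 18 KRAB members with a described target or partner rose after heat shock (ZNF274, ZNF350 and ZNF331) and none fell, and with both treatments 4 rose and 1, ZNF133, fell. The rise of ZNF274 rests on 1 probe set of 4. Of 25 members with a role other than KRAB repression, 4 rose and 3 fell after heat shock, and 5 rose and 5 fell with both treatments. Beside these small lists, 4.93% of all genes rose and 7.92% fell after heat shock, and 8.66% and 14.4% with both treatments. Neither list had a member called after wounding alone.

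In a list of KRAB corepressor and heterochromatin genes, more fell than rose. The list held 30 measured genes of the corepressor machinery and the heterochromatin factors around it. After heat shock 8 fell (26.7%) and 2 rose (6.67%), against 7.92% and 4.93% of all genes. With both treatments against control 14 fell (46.7%) and 3 rose (10%), against 14.4% and 8.66%. TRIM28 itself differed by -0.15 (limma adjusted p = 0.56) after heat shock and -0.26 (adjusted p = 0.195) with both treatments, and SETDB1 by 0.21 (adjusted p = 0.0829) and 0.13 (adjusted p = 0.237). The DNA methyltransferase gene DNMT3A fell by 0.40 after heat shock, PPHLN1, a subunit of the HUSH silencing complex, by 0.39, DNMT3B by 0.38 and TRIM24, a relative of TRIM28, by 0.35. TASOR, another HUSH subunit, rose by 0.24 and MORC2, a HUSH partner, by 0.32. With both treatments TRIM24 fell by 0.57, UHRF1, which guides maintenance DNA methylation, by 0.50, CHD4, the NuRD remodeller, by 0.46 and EHMT1, an H3K9 methyltransferase, by 0.43, while MORC3 rose by 0.39. These genes are brighter than the members, with group medians of 8.63 to 8.84. Among all genes of the upper middle and highest level bins, 14.5% and 12.1% fell after heat shock. With both treatments against control 25.8% and 22.8% fell in these bins. Whether the list differs from genes of like level was not tested.

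KRAB zinc finger genes are close paralogs, and probe sets can read more than 1 of them. Of the members, 36 were read through a probe set with the suffix _s_ or _x_ and 92 through one without. Among the 92, 10 rose and 6 fell after heat shock, and among the 36, 4 rose and 1 fell. The 21 members called after heat shock included 16 with further probe sets, 49 in all, of which 40 had the same sign, 12 passed in the same direction and 0 in the opposite one. With both treatments against control 65 further probe sets of 23 members gave 56 of the same sign, 21 that passed in the same direction and 0 that passed in the opposite one. In all, 40 of the 128 members were called in at least 1 of the 5 comparisons of groups, and 88 in none. The matching count over all genes was not made, so these 2 counts do not set the members apart. With both treatments against control alone, 32 members and 23.1% of all genes were called in either direction.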

How the data were processed

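RNA of 12 A549 samples was measured on Affymetrix PrimeView arrays. The authors deposited RMA values on the log2 scale, 1 per probe set; the submitters' processing notes name Expression Console as the software. RMA can compress differences of dim probe sets, and the number of arrays limits the precision. Of 49293 probe sets, 44987 with 1 symbol in the platform annotation and no missing value gave 18132 genes, each represented by its brightest probe set. Groups came from the labels. All 4 groups entered 1 linear model (limma 3.58.1, R 4.3.3, lmFit and eBayes, 8 residual degrees of freedom), adjusted by Benjamini-Hochberg over all genes within a comparison and called under 0.05. Intervals after ± are SE for differences and SD for levels. Named members were, per comparison, the largest differences called with groups that did not overlap (10 falls and 6 rises against control, 4 and 3 against a single treatment), the 3 smallest interaction p, and called members of 2 role lists. ZNF394 and members listed for completeness fall outside this rule and were chosen after their values were seen. The name range of the members and the gene lists were proposed with earlier results of these data known. Subgroups by KRAB or SCAN domain were planned from protein sequences and not made, since no protein table was used here. On data simulated over 18132 genes for heat shock against control, 49 and 48 of 50 genes changed by -1 and 1 were called, and 27 and 31 of 50 changed by -0.5 and 0.5, with 3.7% of calls false. Deviations of same-numbered replicates all correlated over 0.1 only between the arrays with both treatments and the wounded arrays (r = 0.103, 0.234 and 0.143). Between heat shocked and control arrays they were all positive (r = 0.125, 0.053 and 0.187). A pairing is not stated in the labels, and differently numbered replicates reached r = 0.243 between the arrays with both treatments and control arrays. Alternatives were 3 scalings, a replicate block, averaged replicates, a filter on dim genes, 2 choices of probe set, another moderation and leaving out each array.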

Additional observations from a re-analysis of the deposited data

How the results depend on the processing

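Of the 79 calls of members over the 5 comparisons of groups, 1 changed direction under an alternative: ZNF160 with both against control, at -0.11 on plain probe sets. With replicates 1 and 2 averaged into 1 sample, 2 members fell and 6 rose after heat shock, 0 fell after wounding, 4 fell with both treatments against control, and 2 fell and 7 rose with both against wounding. That fit has fewer samples, and the counts over all genes dropped too. They were 456 falls and 463 rises after heat shock, 1414 and 1061 with both against control, and 551 and 553 with both against wounding. Of 53 named calls that fit kept 28. Quantile normalization and cyclic loess each gave 1 rise after wounding, 6 falls with both against wounding and 1 rise with both against heat shock; leaving out genes under the floor gave 1 rise after wounding and a median of 0.04 with both against control. Plain probe sets alone gave 0 falls after wounding and kept 39 of 49 named calls, losing ZNF274 in heat shock (0.23, adjusted p = 0.324), in both against control (0.29, 0.147) and in both against wounding (0.24, 0.257); the mean of all probe sets kept 42 of 53, ZNF274 among them (0.32, adjusted p = 0.0223 in heat shock), and gave 0 falls with both against heat shock. A trended, robust moderation gave 2 falls there. The cause of these shifts was not tested. In both against wounding, deviations of same-numbered replicates correlated at 0.103 to 0.234, and those of differently numbered replicates at -0.194 to 0.029. Differently numbered replicates reached 0.243 in both against control, so such correlations do not establish a pairing. With both against wounding the replicate block gave 10 falls and 15 rises. Between each other pair of groups at least 1 correlation of same-numbered replicates was under 0.1 (-0.187 to 0.225 in all). In the other comparisons the replicate block gave 2 falls after wounding and lost ZNF133 with both treatments (adjusted p = 0.063). It left the other counts within 1.5 times.

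Leaving out each array in turn gave 3 to 8 falls and 8 to 18 rises after heat shock, 0 to 3 and 0 to 1 after wounding, 6 to 13 and 15 to 22 with both against control, 5 to 12 and 8 to 14 with both against wounding, and 1 to 2 and 0 to 1 with both against heat shock. The interaction stayed at 0 (limma). With all arrays, 5 members had an unadjusted p under 0.05 there, against 1302 of all 18132 genes. Medians ran from -0.018 to 0.038 after heat shock, -0.006 to 0.021 after wounding, -0.009 to 0.027 with both against control, 0.013 to 0.042 with both against wounding, -0.007 to 0.026 with both against heat shock and -0.03 to 0.026 for the interaction. Calls for ZNF274, ZNF346, ZNF134, ZNF331 and ZNF350 after heat shock held in each of these. The 34 members under the floor have levels in the range of genes of absent lineages, so changes in them may have gone undetected.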
